A study of Gallus gallus with 7 samples.

Results

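In the ovaries of 7 laying hens, 25 genes of the 24356 in the count table were present in some birds and absent in others. A gene was called present in a hen at 1 CPM or more (its count scaled to the total of that library) and absent at 3 raw counts or fewer. Each of the 25 was present in at least 2 hens and absent in at least 2 other hens, and genes whose highest CPM was 4 times the second highest or more were left out. The genes were thus chosen by the levels measured in these same 7 libraries, which are given as a description with no test.

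The hens, of the Single-comb White Leghorn laying breed, were caged singly in a flock of 40 and recorded for egg laying from week 16 to week 76. Persistent layers (PL, n = 3, laying rate 100%) were hens 8, 9 and 20, named here by sample number, and non-persistent layers (NPL, n = 4, laying rate at most 82%) were hens 10, 12, 13 and 42. All were aged 76 weeks when the recording ended, no treatment or genetic change is named for either group, and the question was what distinguishes the ovaries of birds that keep laying. A piece of about 10 mg of ovarian body, with follicles over 1 mm removed, gave a library per hen. The libraries held 21535850 to 27803563 counts and the labels name no batch. Hen 20 stood apart: 100 genes of the table were present there and absent in at least 2 other hens, against 10 to 19 such genes in each other hen. The labelled tissue could not be checked against marker genes because the gene IDs are not paired with symbols in the sources used here.

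The hen's ovary is a stroma of connective tissue, vessels, nerves and immune cells in which oocytes lie in small follicles, and a few follicles at a time are recruited to grow, fill with yolk and ovulate. Between animals of a species, some transcripts are known to be found in certain individuals and missing in others, as with genes that differ in copy number, genes with silenced or regulatory alleles, and genes used by a rare cell type or a short stage. Which of these applies to any gene here was not tested. Names, functions, positions and sequences of the 25 genes are not given for the same reason as the markers, so each is identified by its Ensembl ID.

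Genes of this kind were rare. In pieces of ovarian body, fewer cells of a type and less RNA per cell cannot be told apart. Of the 15925 genes at 1 CPM or more in at least 2 hens, 89 were absent in any hen, 61 of these in exactly 1 hen and 28 in at least 2. Leaving out the 3 genes led by 1 hen gave the 25, or 0.157% of the 15925. All 25 were low: their mean over the 7 hens was 0.484 to 1.55 CPM, between percentiles 23.8 and 32.9 of the genes with any count. The highest hen reached 1.10 to 7.08 CPM (median 1.75), and 11 of the 25 reached 2 CPM in some hen.

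The rule sets the 2 states apart in counts, and few genes were in one of them in every bird. A level of 1 CPM was 22 to 28 counts, depending on the library, and 3 counts were 0.108 to 0.139 CPM. Of the 175 values (25 genes in 7 hens), 60 were present, 63 absent and 52 in between, so the word "absent" means few or no reads at this depth and not a lost gene. A count of 0 was found 15 times, in 11 of the genes, and still allows up to 3 counts as a one-sided 95% limit. Only 3 genes were either present or absent in all 7 hens, and the other 22 had at least 1 hen in between. Presence in 2 hens was the commonest case with 17 genes, followed by 3 hens with 6 genes and 4 hens with 2 genes.

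**Figure D1:**
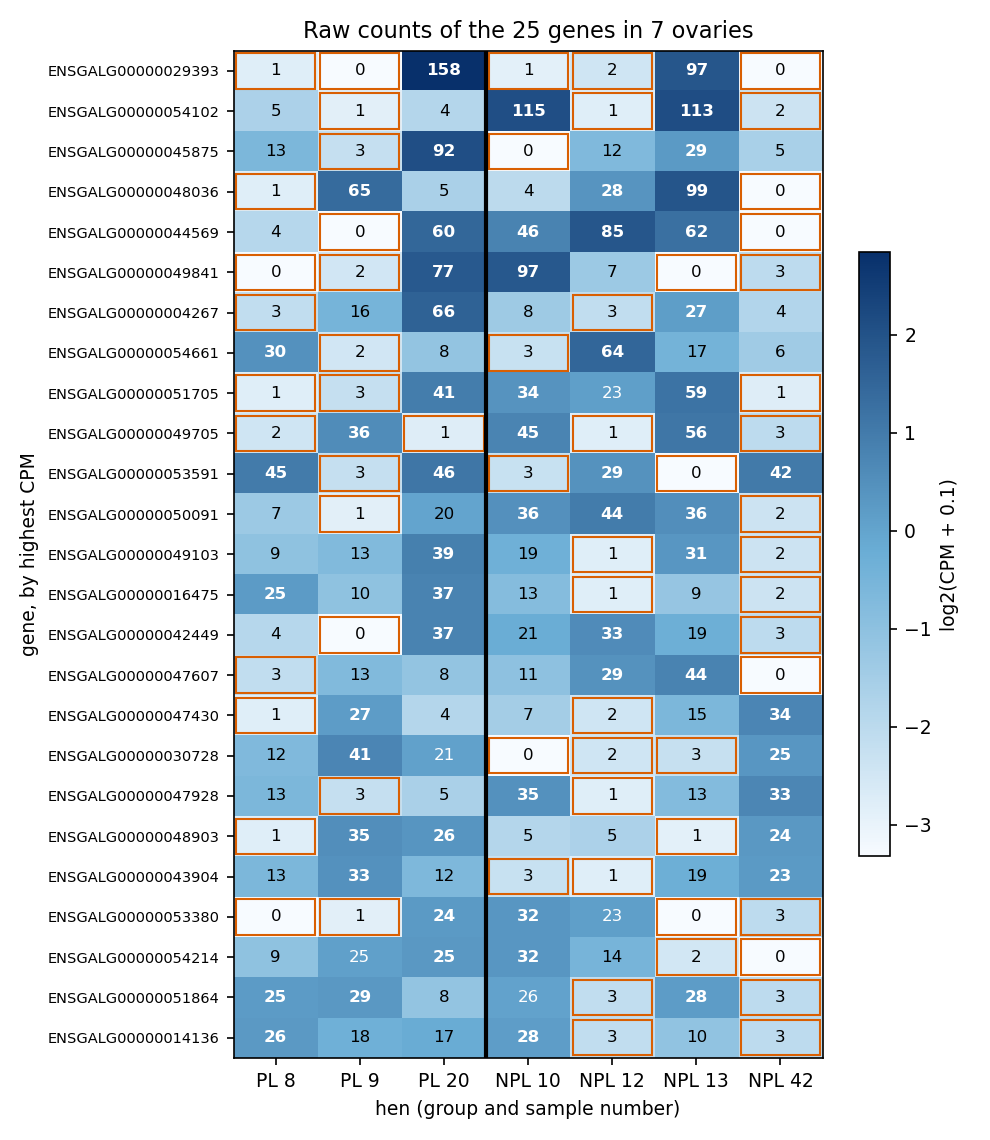
Raw counts of the 25 genes (rows, ordered by highest CPM) in the 7 hens (columns, PL left and NPL right of the line), with colour giving log2(CPM + 0.1), bold numbers marking 1 CPM or more and orange boxes marking 3 counts or fewer. Bold and boxed cells lie on both sides of the group line, and 3 rows, ENSGALG00000029393, ENSGALG00000049705 and ENSGALG00000053591, hold no cell in between.

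The 3 genes that were on or off in every hen split the birds in 2 ways. ENSGALG00000029393 had 1, 0 and 158 counts in PL hens 8, 9 and 20 and 1, 2, 97 and 0 counts in NPL hens 10, 12, 13 and 42. It was thus found in 1 hen of each group, at 7.08 CPM in hen 20 (95% exact Poisson interval, counting error only, 6.02 to 8.28) and 3.61 CPM in hen 13 (2.93 to 4.41). The lower of these was 25.9 times the level that 3 counts represent in the shallowest of the other libraries. Across the whole table, another 13 genes separated hens 20 and 13 from the remaining hens by at least 2-fold, the next of them by 2.90-fold, and 10 genes separated them in the opposite direction, the highest by 3.73-fold.

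The other two had opposite states in every bird. ENSGALG00000049705 had 2, 36 and 1 counts in hens 8, 9 and 20 and 45, 1, 56 and 3 counts in hens 10, 12, 13 and 42. ENSGALG00000053591 had 45, 3 and 46 counts in hens 8, 9 and 20 and 3, 29, 0 and 42 counts in hens 10, 12, 13 and 42. Where the first was present (hens 9, 10 and 13) the second was absent, and where the second was present (hens 8, 20, 12 and 42) the first was absent. The smallest count among the present values was 29 (95% exact Poisson interval 19.4 to 41.6) and the largest among the absent ones was 3 (0.619 to 8.77), a distance that the rule itself sets.

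The sum of the pair lay at 1.99, 1.50 and 2.11 CPM in hens 8, 9 and 20 and at 1.73, 1.28, 2.09 and 2.09 CPM in hens 10, 12, 13 and 42, a mean of 1.82 ± 0.331 CPM (SD, n = 7). The highest sum was 1.64 times the lowest. The pair was picked for opposite states, so the sum in each hen is mostly the level of whichever gene was present, and a narrower range than that of either gene (0.0427 to 2.09 CPM for ENSGALG00000049705, 0 to 2.06 CPM for ENSGALG00000053591) comes with that choice. Only pairs among the 3 genes on or off in every hen could be opposite in all 7 hens, and this was the only such pair. Among all pairs of the 25 genes the next reached 5 hens, where hens in between limit the number that can be reached. Elsewhere in the table, 3 other genes followed the first and 6 other genes the second by at least 2-fold over the same hens, the highest by 2.41-fold and 2.56-fold. Whether the pair are near-identical copies, neighbours or overlapping genes, among which reads could be divided in counting, was not tested.

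**Figure D2:**
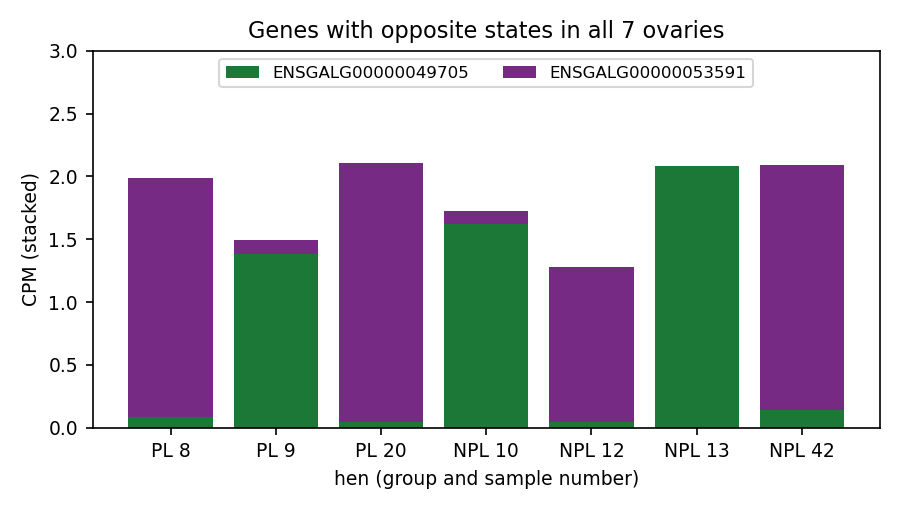
CPM of ENSGALG00000049705 (green) and ENSGALG00000053591 (purple), stacked, in each hen. Each bar is nearly all of a single colour, and the bar heights lie between 1.28 and 2.11 CPM.

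A further 7 genes had a gap of at least 5-fold between neighbouring hens when the birds were ordered by CPM (values below 3 counts set to 3 counts), with a few counts in the hens on the low side. ENSGALG00000054102 had 5, 1 and 4 counts in hens 8, 9 and 20 and 115, 1, 113 and 2 counts in hens 10, 12, 13 and 42. It was high in 2 NPL hens at nearly equal levels, 4.14 CPM in hen 10 and 4.21 CPM in hen 13, the lower of them 19.5 times the highest of the other hens. ENSGALG00000049841 had 0, 2 and 77 counts in hens 8, 9 and 20 and 97, 7, 0 and 3 counts in hens 10, 12, 13 and 42. It was high in hens 20 and 10, again at nearly equal levels of 3.45 and 3.49 CPM, with a gap of 11.5-fold below them.

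ENSGALG00000053380 was present in the same hens 20 and 10 at lower levels: 0, 1 and 24 counts in hens 8, 9 and 20 and 32, 23, 0 and 3 counts in hens 10, 12, 13 and 42. It differed from ENSGALG00000049841 in hen 12, where its 23 counts were 0.982 CPM, just under the level called present, against 7 counts for the other gene, and its widest gap, 7.05-fold, lay below hen 12. These 2 genes were the only members to share a full pattern of present and absent hens. The 4 highest-reaching of the 25 included ENSGALG00000048036, with 1, 65 and 5 counts in hens 8, 9 and 20 and 4, 28, 99 and 0 counts in hens 10, 12, 13 and 42. Hens 9, 12 and 13 stood above the rest there, by a gap of 5.33-fold, but differed by 3.08-fold among themselves. ENSGALG00000048903 was even among the hens that had it: 1, 35 and 26 counts in hens 8, 9 and 20 and 5, 5, 1 and 24 counts in hens 10, 12, 13 and 42, with a gap of 5.22-fold and a range of 1.20-fold among hens 9, 20 and 42.

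Hens 20, 10, 12 and 13 were together above hens 8, 9 and 42 in 4 genes, a grouping noticed in the data. ENSGALG00000044569 had 4, 0 and 60 counts in hens 8, 9 and 20 and 46, 85, 62 and 0 counts in hens 10, 12, 13 and 42, a gap of 9.77-fold. ENSGALG00000051705 had 1, 3 and 41 counts in hens 8, 9 and 20 and 34, 23, 59 and 1 counts in hens 10, 12, 13 and 42, a gap of 7.05-fold. The same 4 hens led less sharply in the remaining pair of genes. ENSGALG00000050091 had 7, 1 and 20 counts in hens 8, 9 and 20 and 36, 44, 36 and 2 counts in hens 10, 12, 13 and 42, a gap of 3.03-fold. ENSGALG00000042449 had 4, 0 and 37 counts in hens 8, 9 and 20 and 21, 33, 19 and 3 counts in hens 10, 12, 13 and 42, a gap of 4.18-fold. Across the whole table, another 6 genes separated these hens in the same direction by 2-fold or more, the highest by 6.90-fold, and 0 did so in the opposite direction, where the highest was 1.88-fold.

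Gaps of this size were uncommon outside the 25, whose selection favours wide gaps. With at least 2 hens on each side, the widest gap was 5-fold or more in 10 of the 25 genes and in 17 of the other 15900 genes at 1 CPM in 2 hens. The median widest gap was 3.97-fold in the 25 and 1.17-fold in the others. The rule requires a wide spread in the 25 and the others were not matched to them in level, so the contrast largely follows from the choice.

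The other genes are called graded here because no gap reached 5-fold, a limit set by choice, and some hens lay between absent and present. In ENSGALG00000045875, counts were 13, 3 and 92 in hens 8, 9 and 20 and 0, 12, 29 and 5 in hens 10, 12, 13 and 42. In ENSGALG00000004267, counts were 3, 16 and 66 in hens 8, 9 and 20 and 8, 3, 27 and 4 in hens 10, 12, 13 and 42. Both were led by hen 20, by 3.82-fold and 2.94-fold over the next hen, and were the closest to the limit of 4 at which genes led by a single hen were left out. The nearest genes beyond that limit, ENSGALG00000016668 and ENSGALG00000003075, had ratios of 7.12 and 11.2.

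Hens 12 and 42 were lowest, below a gap, in 3 graded genes. ENSGALG00000016475 had 25, 10 and 37 counts in hens 8, 9 and 20 and 13, 1, 9 and 2 counts in hens 10, 12, 13 and 42. ENSGALG00000049103 had 9, 13 and 39 counts in hens 8, 9 and 20 and 19, 1, 31 and 2 counts in hens 10, 12, 13 and 42. ENSGALG00000014136 had 26, 18 and 17 counts in hens 8, 9 and 20 and 28, 3, 10 and 3 counts in hens 10, 12, 13 and 42. In ENSGALG00000014136 the gap of 2.67-fold lay under the other 5 hens, and no hen exceeded 1.10 CPM. ENSGALG00000051864 was also absent in hens 12 and 42, with 25, 29 and 8 counts in hens 8, 9 and 20 and 26, 3, 28 and 3 counts in hens 10, 12, 13 and 42. Its hens 8, 9, 10 and 13 lay within 1.19-fold of each other.

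Hens 9 and 42 were the present hens in 3 genes, all of them absent in hen 12. ENSGALG00000030728 had 12, 41 and 21 counts in hens 8, 9 and 20 and 0, 2, 3 and 25 counts in hens 10, 12, 13 and 42. ENSGALG00000043904 had 13, 33 and 12 counts in hens 8, 9 and 20 and 3, 1, 19 and 23 counts in hens 10, 12, 13 and 42. ENSGALG00000047430 had 1, 27 and 4 counts in hens 8, 9 and 20 and 7, 2, 15 and 34 counts in hens 10, 12, 13 and 42. In ENSGALG00000030728 hen 42 was the sole NPL hen above 3 counts, while all PL hens had at least 12 counts.

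The remaining 4 genes each had a pattern of their own. ENSGALG00000047928 had 13, 3 and 5 counts in hens 8, 9 and 20 and 35, 1, 13 and 33 counts in hens 10, 12, 13 and 42. ENSGALG00000047607 had 3, 13 and 8 counts in hens 8, 9 and 20 and 11, 29, 44 and 0 counts in hens 10, 12, 13 and 42. In both genes all the present hens were NPL. ENSGALG00000054661 had 30, 2 and 8 counts in hens 8, 9 and 20 and 3, 64, 17 and 6 counts in hens 10, 12, 13 and 42. ENSGALG00000054214 had 9, 25 and 25 counts in hens 8, 9 and 20 and 32, 14, 2 and 0 counts in hens 10, 12, 13 and 42. The latter was graded across the birds without a wide gap (2.73-fold at most), and hen 9, at 25 counts, lay under 1 CPM while hen 20, with the same count in a shallower library, lay above it.

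The birds differed in how many of the genes they held. Hen 20 (PL) had 13 of the 25 present and 1 absent, and hen 13 (NPL) had 12 present and 6 absent. At the other end, hen 42 (NPL) had 6 present and 16 absent, and hen 8 (PL) had 5 present and 10 absent. Hens 9, 10 and 12 had 7, 10 and 7 present and 12, 6 and 12 absent. Over the whole table the order was similar, so it is not particular to the 25. Genes at 1 CPM or more numbered 15579, 15481 and 15448 in hens 20, 13 and 10 and 15191 to 15292 in the others. Of the 15925 genes at 1 CPM in at least 2 hens, 35 were absent in hen 42 and 10 in hen 20. In hens 8, 9, 10, 12 and 13 these numbered 18, 27, 13, 19 and 12, members included. Hen 42 had the shallowest library, hen 20 the second shallowest and hen 10 the deepest. With the other libraries thinned to the 21535850 counts of hen 42, whose own numbers could not change, hen 20 had 13 present and 1 absent, and the numbers of the others moved by at most 1. The library of hen 20 held 22312114 counts, so little was removed from it, and the 25 had been chosen at full depth. The thinning therefore cannot show whether depth matters for the numbers of hen 20.

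Without hen 20, which stood apart in the whole table, the rule found 16 genes, all of them among the 25, and 2 of these were on or off in each of the 6 hens left. Of the 16, between 4 (hen 8) and 8 (hen 13) were present in a hen and between 3 (hen 13) and 9 (hen 42) absent. The rule found 11 genes without hen 42, 14 without hen 12 and 16 or 17 without any other hen. The limits of 2 hens present and 2 absent were kept, so fewer hens shorten the list and keep it close to the 25 by construction.

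**Figure D3:**
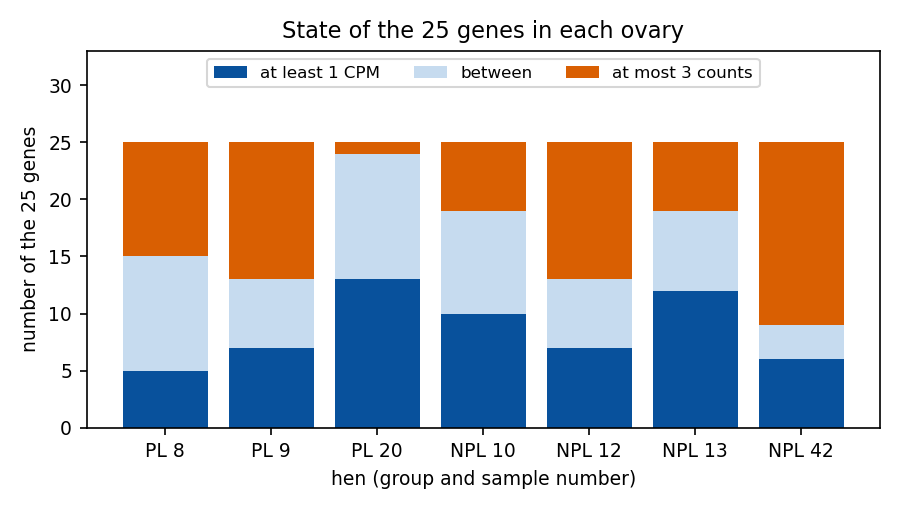
Number of the 25 genes at 1 CPM or more (blue), at 3 counts or fewer (orange) and in between (light blue) in each hen. Present genes number from 5 (hen 8) to 13 (hen 20) and absent genes from 1 (hen 20) to 16 (hen 42), with high and low hens in both groups.

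Pairs of hens differed in these genes about as much within a group as between groups. The number of genes present in a hen and absent in the other was 5 to 13 (median 7) over the 9 pairs within a group and 4 to 10 (median 6) over the 12 pairs between groups. Hens 13 and 42, both NPL, were opposite in 13 genes, the most of any pair, and shared no present gene. The fewest, 4, were between hen 20 (PL) and hens 10 and 12 (NPL). Over the whole table the order was another: each of these 2 pairs was opposite in 91 genes, pairs with hen 20 in 80 to 105 and pairs without it in 13 to 45. Pairs share birds and were not tested.

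**Figure D4:**
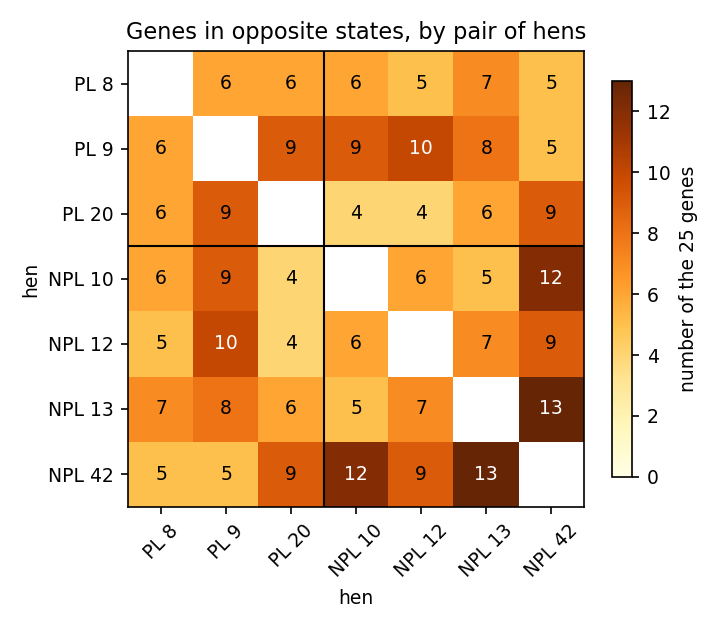
Number of the 25 genes present in a hen and absent in the other, for each pair of hens, with lines between PL and NPL. The highest value, 13, is between NPL hens 13 and 42, and the lowest, 4, between PL hen 20 and NPL hens 10 and 12.

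Pooled over hens, present values were about as frequent in both laying groups, but those of PL came largely from hen 20. Of the 75 values in PL hens 25 (33.3%) were present and 23 (30.7%) absent, and of the 100 values in NPL hens 35 (35.0%) were present and 40 (40.0%) absent. Hen 20 gave 13 of the 25 present PL values and 1 of the 23 absent ones. Hens 8 and 9 had 5 and 7 present and 10 and 12 absent. Values of the same hen are not independent, and the shares were not tested. The present hens came from both groups in 20 genes, from PL alone in 1 (ENSGALG00000016475) and from NPL alone in 4, and the absent hens came from both groups in 18 genes and from NPL alone in 7. None was present in all PL and absent in all NPL hens, or the reverse. Only the 3 genes on or off in every hen could meet this, and the share over all genes was not computed. The CPM ranges of the groups overlapped in all 25. They were free of overlap in 3.99% of the 15925 genes at 1 CPM in 2 hens. With a share this small, 25 genes are too few to set the members apart from the other genes in this respect.

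The test across all genes called no member between PL and NPL ovaries. In edgeR's quasi-likelihood test with Benjamini-Hochberg adjustment, 22 of the 25 passed the filter on low counts. At a threshold of 0.05 on the adjusted p, 0 of these were higher and 0 were lower in PL, where the background was 0% of 17051 genes in either direction. At an unadjusted p under 0.05 there was 1, against a background of 3.52%. DESeq2, which gave an adjusted p to 23 of the 25, called 0 of them (background 0.0569%). The limma voom test, run with sample quality weights so that hens count unequally, called 0 of the 22 (background 0%). DESeq2 and limma voom gave 2 and 5 members an unadjusted p under 0.05, against backgrounds of 4.5% and 28.5%. At an adjusted p under 0.10, limma voom gave 4 of the 22 (ENSGALG00000016475, ENSGALG00000030728, ENSGALG00000004267 and ENSGALG00000045875), all higher in PL. The background was 5.67% for higher in PL and was not computed for lower in PL. In edgeR 0 passed 0.10, and the smallest edgeR adjusted p over all genes was 0.886. The log2 fold changes of these 4 members, in the order given, were 2.32, 3.65, 2.69 and 4.75 by limma voom and 2.06, 1.59, 1.55 and 1.76 by edgeR. Without hen 20 the edgeR value was -0.12 for ENSGALG00000004267, -0.43 for ENSGALG00000045875 and 1.58 for ENSGALG00000016475. For ENSGALG00000030728 the values with a hen left out were not examined. With a filter that all 25 passed, 1 CPM in 2 hens, edgeR called 0 (background 0%), with 2 at an unadjusted p under 0.05 (background 3.42%) and a smallest adjusted p of 0.883.

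Differences between group means were large in size and imprecise. Among the 22 tested, the median absolute log2 fold change was 0.86 with a median standard error of 1.05, against 0.17 and 0.22 over all genes tested. The genes were chosen for varying between birds, which favours such sizes, and the directions were even, 11 higher and 11 lower in PL. The 22 also lay at the low end of expression, and the genes they are set against were not matched to them in level.

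The members with the smallest p-values show how the groups overlapped. For ENSGALG00000016475 the PL hens averaged 1.03 ± 0.622 CPM (SD, n = 3) and the NPL hens 0.232 ± 0.197 CPM (SD, n = 4), here scaled by TMM factors. The log2 fold change was 2.06 (SE 0.72, edgeR adjusted p = 0.886), and NPL hen 10 lay above PL hen 9 while the other NPL hens lay below every PL hen. ENSGALG00000004267 had a log2 fold change of 1.55 (SE 0.96, edgeR adjusted p = 0.886), which was -0.12 without hen 20 and 2.69 by limma voom. In the other direction ENSGALG00000050091 had a log2 fold change of -1.53 (SE 0.97) and ENSGALG00000047928 of -1.47 (SE 0.95), both with an edgeR adjusted p of 0.886. The first was -2.76 without hen 20, -0.97 without hen 9 and -0.53 by limma voom. The second was -2.32 without hen 8, -0.999 without hen 42 and -1.77 by limma voom. ENSGALG00000054102, high in NPL hens 10 and 13, did not pass the edgeR filter. Without a low-count filter its log2 fold change was -3.86 (SE 1.42, edgeR adjusted p = 0.854), and NPL hens 12 and 42 lay within the range of the PL hens.

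**Figure D5:**
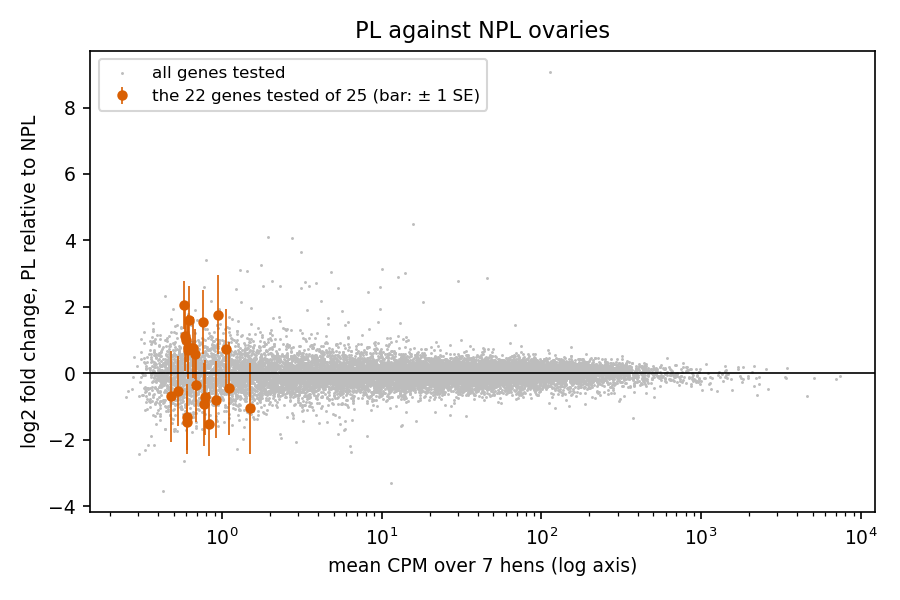
Log2 fold change of PL relative to NPL against mean CPM over the 7 hens (log axis) for all 17051 genes tested (grey) and the 22 tested members (orange, bars ± 1 SE). The members lie at the low end of expression, between 0.484 and 1.49 CPM, with 11 above and 11 below 0.

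The limits of the rule passed through a continuum. The members closest to the limit of 1 CPM had a second highest CPM of 1.01 (ENSGALG00000004267 and ENSGALG00000014136), and the closest genes outside had 0.997 (ENSGALG00000049075 and ENSGALG00000049903). The second lowest count was 3 in 10 of the members, among them the same pair, and 4 in 5 genes just outside, such as ENSGALG00000021589 and ENSGALG00000047835. A further 109 genes met the other criteria with a second highest CPM of at least 0.5 but under 1.

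By Ensembl number, which is given roughly in the order in which genes were added to the annotation, 20 of the 25 (80%) lay above the median of the table. The share was 67.3% among the 2003 genes in the same range of mean CPM.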

How the data were processed

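Total RNA of 7 ovaries was cleaned with DNase and sequenced from NEBNext Ultra II libraries, per the labels' protocols. The authors deposited raw counts per Ensembl gene ID, not normalized, with a column per hen. Trim Galore and the build galGal6 are named in the submitters' processing notes, with aligner, counter, strand setting and annotation release not given in the sources used here. Columns were tied to hens by the names in the labels. Of the 25635 genes in the reference table (GRCg7b), 0 carry an Ensembl ID, so gene names, planned marker and gene lists, positions and sequences were not used.

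CPM is the count over the column total; 1 count was 0.0360 to 0.0464 CPM. PL was tested against NPL on all genes with edgeR 4.0.16 (R 4.3.3, filterByExpr, TMM factors 0.956 to 1.04, robust quasi-likelihood). The alternatives were DESeq2 1.42.0 and limma 3.58.1 (voom with sample quality weights). A standard error is the log2 fold change divided by the root of its F statistic. The tests and the rule were tested on simulated data. Of 200 genes changed 4-fold, edgeR, DESeq2 and limma voom called 195, 199 and 195, beside 13, 69 and 16 unchanged genes. Changed genes, and those planted for the rule, were set at higher CPM than the means of the 25. The simulations therefore say nothing about genes at the level of the 25. Named genes were the on or off members, the 2 smallest p-values in each direction, the 4 highest CPM and those at the limits; all 25 are given. Members and lists were chosen with earlier results of these data known. Each hen gave 1 library, so p-values cover spread between birds and in sampling; intervals cover counting error only.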

Additional observations from a re-analysis of the deposited data

Results flagged for a closer look

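Among the 4 NPL hens, 4 of 32 values checked with Dixon's ratio (members' CPM and summaries per hen) had a hen far from the other 3. Chance marks about 5% of such groups, and the choice of genes high in some hens and near 0 in others favours such values. ENSGALG00000029393 was at 3.61 CPM in hen 13, ENSGALG00000049841 at 3.49 CPM in hen 10, ENSGALG00000030728 at 1.16 CPM in hen 42 and ENSGALG00000048903 at 1.11 CPM in hen 42. Each of these genes was also present in at least 1 PL hen. The 3 PL hens are too few for this check.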

How the results depend on the processing

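The number of genes found (25) moved with the limits that define them: it was 134 with presence at 0.5 CPM, 5 at 2 CPM, 4 with absence at 0 counts, 9 at 1 count and 44 at 5 counts, and 11 to 17 with 1 hen left out. Leaving out a hen under the same limits shortens the list by itself. The number was 24 to 29 with TMM-scaled CPM, with thinned libraries or with a looser limit or none on genes led by 1 hen. The number on or off in every hen (3) was 14 and 1 with presence at 0.5 and 2 CPM, 0 with absence at 0 counts or at 1 count, 9 at 5 counts, 5 with TMM-scaled CPM and 2 to 6 with 1 hen left out. The counts of 0 members higher and 0 lower in PL held at 0.05 under the scalings, filters, tests and left-out hens that were run, and at 0.10 in edgeR. At 0.10, limma voom gave 4 higher (background 5.67%) and 0 lower (background not computed). Its smallest adjusted p was 0.0828 (ENSGALG00000016475). Members free of overlap between groups numbered 0 to 2 with 1 hen left out. Fewer hens make such separation easier by itself, and the share over all genes was not computed for these settings. Of 90 alternative fold changes of 8 named members, 85 kept their direction. The others, all of which missed the threshold, were ENSGALG00000004267 (-0.12 without hen 20; -0.12 to 2.08 with 1 hen left out), ENSGALG00000045875 (-0.43 without hen 20; -0.43 to 2.63) and ENSGALG00000048036 (0.0036 without hen 20, 0.096 without hen 8; -3.20 to 0.096; and 0.63 by limma voom); the cause was not tested. Genes that failed a filter have no value there. No paired analysis was possible because the groups were separate birds and the labels name no pairs. Thinning (1 random draw) and leaving out hen 20 for the states of each hen, and limma voom at 0.10, were chosen after seeing the data.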
